A study of Mus musculus with 10 samples.

Results

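The unfolded protein response is the transcriptional program that a cell turns on when proteins in the endoplasmic reticulum (ER) fail to fold. This account follows 34 of its genes, fixed by name, in the brains of Snx14-KO mice. They were picked out of the 55536 mouse genes in the count tables by their GENCODE M21 symbols. No level was used to pick them, but earlier results of these data were known when the list was chosen. For the description they were split into 5 sensors and factors, 12 genes of the ATF6 arm, 10 of the XBP1 arm and 7 of the ATF4 arm, a working division because many targets answer to more than 1 factor. RNA-Seq had been made from the cerebellum, where Purkinje cells degenerate in these mice, and from the cerebral cortex at 1 year of age. Each tissue was taken from the same 5 C57BL/6J mice. Controls 1 and 2 were heterozygous for Snx14 (Het), control 3 was wild type (WT), and KO 1 and KO 2 carried a frameshift deletion in both copies in every cell of the body. The line goes back to 1 edited allele, the pooled controls hold 2 Het mice that already lack 1 working copy, and the KO groups hold 2 mice each.

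Snx14 encodes a sorting nexin anchored in the ER membrane. Misfolded protein in the ER is sensed by 3 membrane proteins. IRE1 (gene Ern1) cuts the Xbp1 mRNA so that it yields the active factor XBP1, PERK (gene Eif2ak3) phosphorylates eIF2 and thereby raises translation of ATF4, and ATF6 is cut in the Golgi to release its own factor. ATF6 mainly raises chaperones, XBP1 raises the machinery that exports misfolded proteins from the ER and degrades them (ERAD), and ATF4 raises amino acid and stress genes. The tables hold 1 count per gene, so neither Xbp1 splicing nor phosphorylation was measured here, and the levels are those of whole tissue, in which fewer cells of a type and less RNA per cell cannot be told apart.

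Short DNA motifs that these factors read were searched for around the start sites of the genes. Of the 34 members, 30 had a promoter window in the RefSeq table (build GRCm38.p6), which covers 250 bases before and 50 bases after a start site. Derl1, Hyou1, Manf and Atf6 had none. The ER stress response element (ERSE, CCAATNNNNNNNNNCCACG, bound by ATF6 or XBP1 together with NF-Y) was searched on both strands. It lay in a window of 9 of the 30 members (30%), against 37 of 27025 genes (0.137%). The members were chosen as genes of this response, so the share describes the list and is no result of these mice. The 9 were Hspa5, Hsp90b1, Calr, Canx, Pdia6 and Creld2 of the ATF6 arm and Dnajc3, Syvn1 and Derl3 of the XBP1 arm. ERSE-II (ATTGGNCCACG) lay in front of Herpud1 and just behind the start of Dnajb11, 6.67% of the members against 0.0444% of genes. The core of the amino acid response element (AARE, TTGCATCA, read by ATF4 and its partners) was found in Atf3, Chac1 and Herpud1, 10% of the members against 1.03% of genes. The XBP1 element core TGACGTGG was in no member window and in 0.714% of genes. No member match overlapped another. The stretches below show 6 ERSE genes of the ATF6 arm, which are compared between the KO mice further on, and 4 other members with a motif. They are written 5′ to 3′ on the gene's strand, with each motif, or its reverse complement, in capitals.
Hspa5, chr2:34772015-34772053 (+), ERSE: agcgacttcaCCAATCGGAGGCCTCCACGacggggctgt
Hsp90b1, chr10:86705523-86705666 (-), ERSE on both strands: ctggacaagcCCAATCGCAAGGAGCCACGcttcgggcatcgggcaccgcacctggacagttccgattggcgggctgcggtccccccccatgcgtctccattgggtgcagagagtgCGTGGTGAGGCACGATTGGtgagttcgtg
Calr, chr8:84847065-84847103 (-), ERSE reversed: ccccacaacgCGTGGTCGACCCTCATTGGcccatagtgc
Canx, chr11:50325790-50325828 (-), ERSE: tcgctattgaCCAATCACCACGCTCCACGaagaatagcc
Pdia6, chr12:17266481-17266519 (+), ERSE: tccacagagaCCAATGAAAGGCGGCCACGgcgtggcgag
Creld2, chr15:88819510-88819548 (+), ERSE reversed: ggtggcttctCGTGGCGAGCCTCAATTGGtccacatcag
Dnajc3, chr14:118937817-118937855 (+), ERSE: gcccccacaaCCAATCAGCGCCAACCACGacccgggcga
Herpud1, chr8:94386307-94386397 (+), AARE core and ERSE-II: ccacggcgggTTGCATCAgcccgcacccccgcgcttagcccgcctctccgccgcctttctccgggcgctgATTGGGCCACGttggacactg
Atf3, chr1:191183426-191183453 (-), AARE core: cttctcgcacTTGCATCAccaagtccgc
Chac1, chr2:119351039-119351066 (+), AARE core: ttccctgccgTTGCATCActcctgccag
A match describes the letters and is neither a measured binding site nor a cause of any level given here.

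The 10 libraries held 16088310 to 22975355 gene counts. Snx14 stood at 42.8, 39.9 and 73.3 CPM (counts scaled to a common library size) in control cerebella 1 to 3 and at 15.5 and 17.4 CPM in the KO cerebella, and it was lower in both KO cortices too (14.8 and 16.1 CPM against 34.4 to 50.9 CPM). The summed CPM of 5 granule cell markers ran from 3079 to 3772 in cerebellum and stayed at or under 22.3 in cortex, as the tissue labels say. Cortex control 2 stood apart: its striatal markers summed to 2438 CPM, against 877 and 1041 CPM in the other controls, and its cortical excitatory markers to 2099 CPM, against 3988 and 4232 CPM. The main results are therefore also given without it. Xist was at 801 CPM or more in controls 1 and 3 and KO 1 and at 3.19 CPM or less in control 2 and KO 2, so each genotype held both sexes. Purkinje cell markers summed to 8276 to 10055 CPM in control cerebella and to 4123 and 4219 CPM in KO cerebella.

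In control brains the members spanned a 249-fold range of level per length of transcript in cerebellum and a 312-fold range in cortex. The luminal chaperone Calr (calreticulin) was at 117 CPM per kilobase of exon in cerebellum and 125 in cortex, and Hsp90b1 (GRP94) at 117 and 98.5. Canx (calnexin), Hspa5 (BiP, the master chaperone that also holds the sensors inactive) and Pdia3, a disulfide isomerase, followed, so the first 5 ranks in both tissues went to the ATF6 arm. Of the sensors, Atf6 was at 6.998 and 10.98 CPM per kilobase in cerebellum and cortex, Eif2ak3 at 5.83 and 4.54, and Ern1 at 1.37 and 1.11. The lowest were the inducible genes Atf3 (0.56 and 0.63) and Trib3 (0.47 and 0.40) and the XBP1 target Derl3 (0.79 and 0.73). Trib3 had as few as 2 counts in a library, Atf3 8 and Derl3 11, so single libraries carry little information on these 3 genes, while all other members had at least 47 counts in every library.

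The first comparison asked whether loss of Snx14 was accompanied by a higher or lower unfolded protein response in the degenerating cerebellum. At the thresholds of the study (adjusted P under 0.05 and absolute log2 fold change over 0.5) none of the 34 members was called, against 302 of 19447 genes tested (1.55%). All 34 passed the filter on low counts. Of the members, 18 lay higher and 16 lower in KO cerebella, with a median log2 fold change of 0.0036 (0.00090 over all genes tested) and a range from -0.15 to 1.09. The 95% interval lay inside ±0.5 for 26 members (76.5%) and for 53.1% of all genes tested, so for those 26 a change beyond that size lay outside the interval. The median SE was 0.0914 for the members and 0.134 for all genes, so the members' intervals were also narrower. The 2 shares therefore do not compare sizes of change. The intervals describe whole cerebellum, of which Purkinje cells are a small part by the paper's account. They do not bound a change within those cells. The paper reported ER enlargement in degenerating Purkinje cells by electron microscopy, and ER compartment genes enriched among its cerebellar differences. At an unadjusted P under 0.05 there were 3 members higher and 0 lower with edgeR, and DESeq2 with the same thresholds also called 0. The KO cerebella did not overlap the controls for 8 members (23.5%), all of them higher. Over all 19447 genes tested, 3009 lay higher without overlap and 2833 lower, together 30%.

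**Figure D1:**
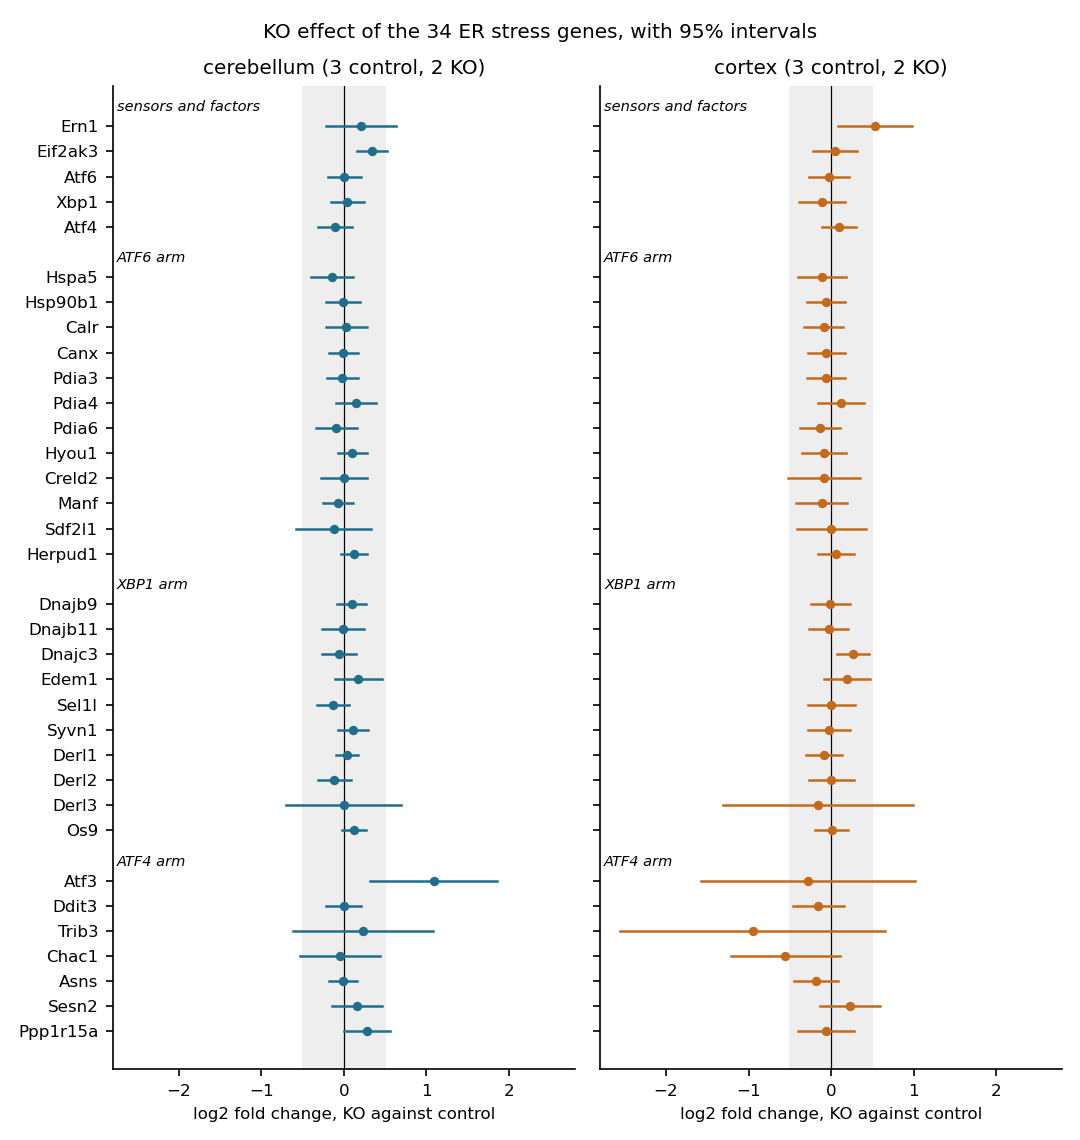
Log2 fold change of each of the 34 members in KO against control tissue (points) with its 95% interval (lines), by arm, in cerebellum (left) and cortex (right). Grey marks the range from -0.5 to 0.5, which holds the whole interval of 26 members in cerebellum and 27 in cortex, and Atf3 lies farthest to the right in cerebellum.

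Among all members, the smallest P belonged to Eif2ak3 (PERK; chr6:70844515-70905245), which encodes the kinase that slows translation. Its level was 33.7, 35.0 and 36.6 CPM in control cerebella 1 to 3 and 45.5 and 44.1 CPM in the KO cerebella. Both KO values were above every control, and the groups did not overlap. The log2 fold change was 0.34 (SE 0.0783, 95% interval 0.17 to 0.52), with an adjusted P of 0.0733 by edgeR, so it did not pass. The adjusted P ran from 0.0244 to 0.292 over 9 alternatives. With DESeq2 and with no filter on low counts it was under 0.05, with a fold change still under the limit. In the same KO cerebella the microglia markers summed to 144 and 149 CPM, against 101 to 115 CPM in controls, and the reactive astrocyte markers to 702 and 726 CPM, against 348 to 413 CPM. The part of these shifts, and of the lower Purkinje cell markers, in the Eif2ak3 difference was not tested.

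The other sensors and factors had 95% intervals that held 0. Ern1 (IRE1) was at 10.3, 9.49 and 13.9 CPM in control cerebella and 14.3 and 11.8 CPM in KO cerebella, which overlapped. Atf6 was at 68.2, 60.4 and 65.2 CPM in controls and 70.6 and 59.9 CPM in KO, a log2 fold change of 0.0049 (95% interval -0.20 to 0.20). Xbp1, the substrate of IRE1, was at 81.9, 89.8 and 74.3 against 81.1 and 88.6 CPM. Atf4 was at 136, 143 and 122 against 135 and 115 CPM. KO values lay on both sides of the control mean for Atf6, Xbp1 and Atf4, and no sensor or factor had an adjusted P under that of Eif2ak3.

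The 12 genes of the ATF6 arm, mostly chaperones and disulfide isomerases, had a median log2 fold change of -0.0073 in cerebellum, and 11 of them had an interval inside ±0.5. Hspa5 had the smallest P of the lower chaperones, at 358, 329 and 335 CPM in controls and 269 and 349 CPM in KO, a log2 fold change of -0.15 (SE 0.111, adjusted P = 0.661). KO 1 was below all controls and KO 2 was among them. In the XBP1 arm the median was 0.019. Besides Hspa5, the 3 smallest P values of members that lay lower included 2 ERAD genes: Sel1l, the adaptor of the HRD1 ubiquitin ligase, at 172, 143 and 166 against 143 and 151 CPM, and Derl2, a Derlin channel protein, at 28.3, 30.9 and 31.0 against 28.3 and 27.5 CPM. Their log2 fold changes were -0.13 (SE 0.0859) and -0.12 (SE 0.0890), with adjusted P of 0.601 and 0.671. Both genes had KO values at or under the middle of the control range.

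The ATF4 arm had the widest spread, with a median of 0.16. Atf3, a stress-induced transcription factor whose promoter carries the AARE core, was at 1.59, 1.34 and 0.712 CPM in control cerebella and 2.31 and 2.90 CPM in KO cerebella. Both KO libraries were above all controls. The log2 fold change was 1.09 (SE 0.337, 95% interval 0.32 to 1.86), with an adjusted P of 0.191 that ran from 0.0145 to 0.565 over 9 alternatives. Only the fit with no filter on low counts called it. The summed immediate early genes, which neuronal activity or handling raises, were at 104 to 302 CPM in controls and 245 and 267 CPM in KO cerebella, and lowest in control 3, which also had the lowest Atf3. Without control 3 the Atf3 value was 0.83, and the part of the immediate early genes in it was not tested.

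Ppp1r15a (GADD34), which recruits the phosphatase that reverses eIF2 phosphorylation, was at 15.7, 17.4 and 16.6 CPM in control cerebella and 22.3 and 18.3 CPM in KO cerebella. The groups did not overlap, but the KO mice differed more from each other than the controls did. Its log2 fold change was 0.28 (SE 0.121), with an adjusted P of 0.365, and it was 0.14 without KO 1. The remaining 5 genes of the arm, Ddit3 (CHOP), Trib3, Chac1, Asns (asparagine synthetase) and Sesn2, had log2 fold changes from -0.042 to 0.23. Ddit3, the factor most often used to report chronic ER stress, was at 32.0, 34.8 and 30.0 CPM in controls and 32.5 and 32.2 CPM in KO cerebella.

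**Figure D2:**
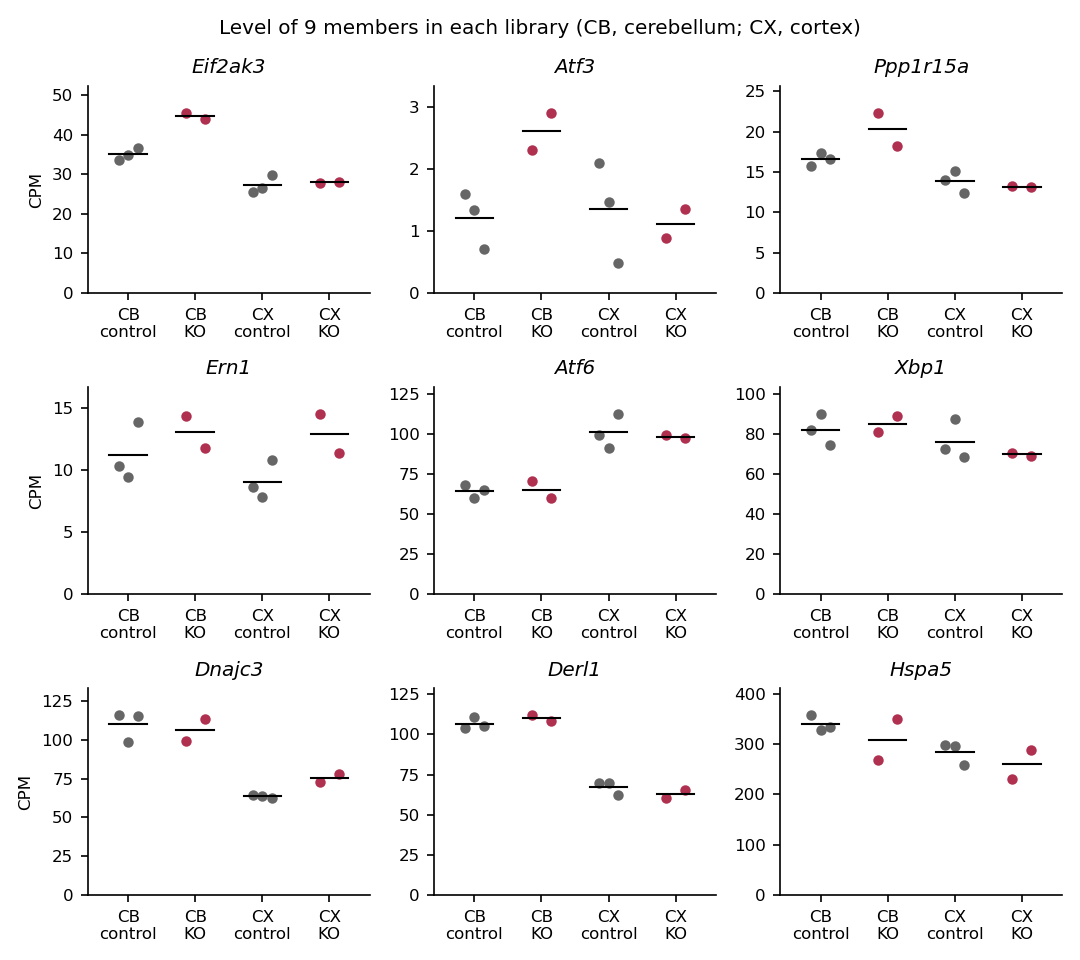
CPM of 9 members in each library by tissue (CB, cerebellum; CX, cortex) and genotype, with 1 point a mouse and a line at the group mean. Eif2ak3, Atf3 and Ppp1r15a lie above all controls in both KO cerebella and not in the KO cortices. Dnajc3 and Ern1 lie above all controls in both KO cortices.

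In cortex, the tissue without degeneration, the same test called 0 of 19202 genes (0%) and 0 members, so the absence of called members there carries no information on the list. At an unadjusted P under 0.05 there were 2 members higher and 0 lower with edgeR, and DESeq2 called 0 members. The members' median was -0.059 (0.0012 over all genes), with 12 higher and 22 lower, and 27 intervals (79.4%) lay inside ±0.5, against 46.1% of all genes (14 members without KO 2). The members' intervals were narrower here too, with a median SE of 0.116 against 0.165 for all genes. KO and control cortices did not overlap for 4 members (11.8%), against 24.7% of all genes. Without cortex control 2 there were 98 genes called, none of them a member, and the median was -0.042.

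Some summed cell type markers did not overlap between KO and control cortices. Reactive astrocyte markers summed to 237 and 228 CPM in KO cortices against 146 to 200 CPM in controls, astrocyte markers to 2047 and 2155 against 1491 to 1912 CPM, and striatal markers to 577 and 283 against 877 to 2438 CPM, none overlapping. The sums of the Purkinje and granule cell markers did not overlap in cortex either, the former lower and the latter higher in KO. The main fit called no gene of these lists in cortex, where 24.7% of all genes did not overlap. These sums therefore do not establish a difference by genotype. Their part in the cortical values below was not tested.

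The 3 members with the smallest P among those higher in KO cortex were Dnajc3, Ern1 and Edem1. Dnajc3 (p58IPK), a BiP co-chaperone that also inhibits PERK, was at 64.4, 63.8 and 62.5 CPM in control cortices and 73.1 and 78.2 CPM in KO cortices. The controls lay within 2 CPM of each other and both KO cortices above them, for a log2 fold change of 0.26 (SE 0.0818, adjusted P = 0.768). Without control 2 the value was 0.27, with an adjusted P of 0.104, in a range of 0.104 to 0.999 over 9 alternatives. Ern1 was at 8.63, 7.81 and 10.8 CPM in controls and 14.5 and 11.4 CPM in KO, again without overlap (log2 fold change 0.53, SE 0.192, adjusted P = 0.796). Edem1, which hands misfolded glycoproteins to ERAD, was at 20.1, 20.6 and 19.6 against 21.2 and 24.3 CPM (0.19, SE 0.120, adjusted P = 0.886), and its value was 0.093 without KO 2. The Ern1 value was 0.33 without KO 1.

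The 3 with the smallest P among those lower in KO cortex, Chac1, Asns and Trib3, all belonged to the ATF4 arm. Chac1, which degrades glutathione, was at 7.49, 4.87 and 5.96 CPM in controls and 5.14 and 3.02 CPM in KO, and the groups overlapped (log2 fold change -0.55, SE 0.286, adjusted P = 0.880). Asns was at 76.6, 94.5 and 77.5 against 72.5 and 72.0 CPM, and it was the only member with both KO cortices below all controls (-0.18, SE 0.115, adjusted P = 0.886). Trib3, a pseudokinase that restrains ATF4, was at 1.02, 1.12 and 0.43 against 0.72 and 0.13 CPM (-0.95, SE 0.692, adjusted P = 0.893). The values leaned on single libraries: Asns was at -0.075 without control 2, Chac1 at -1.004 without KO 1 and -0.22 without KO 2, and Trib3 at -2.67 and -0.24. None of these 6 cortical values passed. The intervals of Trib3 (-2.56 to 0.66), Chac1 (-1.22 to 0.11) and Ern1 (0.086 to 0.98) held changes larger than the limit. Those of Ern1 and Dnajc3 (0.074 to 0.45) did not hold 0. Eif2ak3 and Atf3 showed no difference like that of cerebellum, at 25.6, 26.6 and 29.9 against 27.8 and 28.2 CPM and at 2.10, 1.47 and 0.491 against 0.884 and 1.35 CPM.

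A term for the interaction of genotype and tissue, fitted to all 10 libraries, compared the KO effect in cerebellum with that in cortex. It was past the adjusted P for 21 of 20614 genes (0.102%) and for none of the 34 members, and DESeq2 also called 0 members. With the animal as a block, 128 genes and 0 members were called. At an unadjusted P under 0.05 there was 1 member on each side. Eif2ak3 had a KO effect 0.32 log2 units higher in cerebellum than in cortex (SE 0.128, adjusted P = 0.514), and Dnajc3 one lower, at -0.30 (SE 0.127, adjusted P = 0.556). Atf3 had the largest value of the members, 1.39 (95% interval -0.15 to 2.93). The differences described above between cerebellum and cortex are therefore not established by the test of the difference itself.

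The KO means of the ATF6 arm hid a spread between the KO mice that was seen only after the values had been examined. In all 12 genes of the ATF6 arm KO 2 was above KO 1, in cerebellum and again in cortex, with a median log2 difference of 0.27 and 0.22. Over all genes tested that median was -0.0052 and 0.017, and KO 2 was above KO 1 for 9546 of 19447 genes in cerebellum and 10272 of 19202 in cortex. The 12 genes and both tissues come from the same 2 mice, so they are not independent replicates. Hspa5 was at 269 CPM in KO 1 and 349 in KO 2 in cerebellum (controls 329 to 358) and at 232 and 289 CPM in cortex (controls 259 to 298). Sdf2l1, a BiP cofactor, had the widest gap, at 8.29 and 13.3 CPM in cerebellum (controls 10.9 to 12.5). Herpud1, which anchors ERAD complexes and carries the ERSE-II, had nearly none, at 68.3 and 68.8 CPM.

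KO 1 was the lowest of the 5 libraries for 8 of 12 genes of the ATF6 arm in each tissue (66.7%), where it was lowest for 20.0% and 20.1% of all genes tested. In 7 genes it was lowest in both tissues, 5 of the 6 of this arm with an ERSE in their window and 2 of the other 6. Of those other 6, Hyou1 and Manf had no window. The share of all genes lowest in both tissues was not computed. This split was made after the values were seen and rests on 1 mouse, and a part of the motif in it was not tested. For the ERSE members of the XBP1 arm KO 1 was not the lowest in cerebellum. In cerebellum KO 1 had 99.0 CPM of Dnajc3 (control 2, 98.5) and 1.48 CPM of Derl3 (control 1, 1.21). Its 44.3 CPM of Syvn1 lay above all controls. In cerebellum KO 1 was below and KO 2 above all controls for 7 of 12 genes of the ATF6 arm (58.3%), against 4.14% of all genes, and in cortex for 1 of 12. The mean log2 level of the 12 genes against the control mean was -0.14 in KO 1 and 0.12 in KO 2 in cerebellum and -0.17 and 0.039 in cortex, while the controls lay between -0.071 and 0.061. In the other arms KO 2 was above KO 1 in cerebellum for 5 of 10 genes of the XBP1 arm, 3 of 7 of the ATF4 arm and 1 of 5 sensors and factors. In cortex it was above for 8 of 10, 2 of 7 and 1 of 5. Dnajb11, a BiP co-chaperone counted in the XBP1 arm, had 44.3 and 57.5 CPM in KO cerebella 1 and 2.

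Several other measures differed between the same KO mice. The choroid plexus markers summed to 62.6 CPM in cerebellum of KO 1 and 2919 in KO 2 (controls 1201 to 3402), and to 14.6 and 31.4 CPM in cortex (controls 12.2 to 28.4). Plasma cell markers summed to 182 CPM in KO 1 and 9.86 in KO 2 in cerebellum (controls 3.93 to 6.54) and to 136 and 39.2 CPM in cortex (controls 32.7 to 76.6). KO 1 had the Xist level of a female and KO 2 that of a male. The male control 2 had a mean log2 level of the ATF6 arm, against the control mean, of -0.032 in cerebellum and 0.060 in cortex. That was the lowest of the controls in cerebellum and the highest in cortex. The part of each in the values of the ATF6 arm was not tested.

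**Figure D3:**
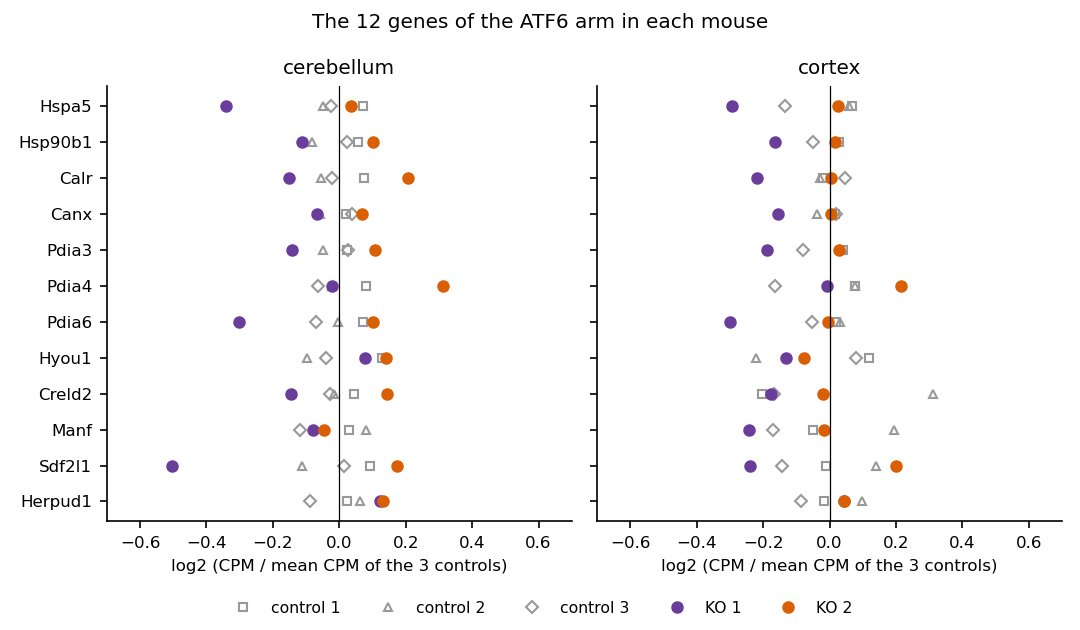
Log2 ratio of each library's CPM to the mean of the 3 controls for the 12 genes of the ATF6 arm in cerebellum (left) and cortex (right), with controls as open symbols and KO 1 and KO 2 filled. KO 2 lies to the right of KO 1 in all 12 genes of both tissues, and KO 1 is the lowest point for 8 genes in each.

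The second question was how far the response genes differ between the regions themselves. In the 3 control mice, 2 members were called higher in cerebellum than in cortex (19.1% of all genes were) and 3 lower (21.5% of all genes). By adjusted P alone the counts were 8 higher and 6 lower, 23.5% and 17.6% of the members, against 26.5% and 26.8% of 19416 genes tested. Of these 14 members, 4 stayed past the adjusted P without control 1, 14 without control 2 and 7 without control 3. The median absolute log2 difference was 0.23 for the members and 0.45 for all genes, and the animal as a block left the 5 called members the same. The part of each region's cell types in these values was not tested.

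Dnajc3 had the largest difference, at 116, 98.5 and 115 CPM in control cerebella against 64.4, 63.8 and 62.5 CPM in cortex, a log2 fold change of 0.79 (SE 0.0846, adjusted P = 7.75e-05). Derl1, a channel protein for export of misfolded proteins, was at 104, 111 and 105 against 69.8, 69.7 and 62.4 CPM (0.66, SE 0.0762, adjusted P = 0.000116). Neither overlapped between the tissues. The sensor Atf6 had the opposite direction, at 68.2, 60.4 and 65.2 CPM in cerebellum and 99.8, 91.7 and 113 CPM in cortex (-0.65, SE 0.0952, adjusted P = 0.000469). Edem1 was lower as well, at 15.0, 13.98 and 12.5 against 20.1, 20.6 and 19.6 CPM (-0.54, SE 0.106, adjusted P = 0.00258), and so was Chac1, at 4.53, 3.19 and 3.66 against 7.49, 4.87 and 5.96 CPM (-0.69, SE 0.218, adjusted P = 0.0266). Chac1 was not called without control 1 (-0.66, adjusted P = 0.0891, in a range of 0.00611 to 0.145 over 7 alternatives), and without control 3 only Atf6 of these 3 was called. Without control 2 the same 2 higher and 3 lower members were called.

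Among the sensors and factors, Eif2ak3 and Atf4 passed the adjusted P with smaller differences, 0.36 (adjusted P = 0.0105) and 0.37 (adjusted P = 0.00546). For Atf4 the cortices were at 97.8, 109 and 103 CPM, all below the lowest cerebellum at 122 CPM. Of the ATF6 arm, Hspa5, Hsp90b1, Pdia4 and Herpud1 were higher in cerebellum by 0.24 to 0.35 on the log2 scale. Hyou1 and Pdia6 were lower by 0.36 and 0.23, and all these genes were past the adjusted P and none past the fold limit. Asns of the ATF4 arm was lower by 0.38 (adjusted P = 0.0110). Without control 1 none of these 9 genes stayed past the adjusted P (0.102 for Eif2ak3, 0.0960 for Atf4, 0.189 for Hspa5 and 0.0661 for Asns). Xbp1 (0.10, SE 0.112) and Ern1 (0.30, SE 0.190) did not pass.

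The KO mice gave the same contrast in libraries that the control fit had not used. There 4 members were called higher in cerebellum (17% of all genes) and 2 lower (19.8% of all genes), and by adjusted P alone 9 and 5, against 24.4% and 25.9% of 19593 genes. Derl1 was higher again (112 and 108 against 60.6 and 65.5 CPM, 0.77), and Atf6 and Edem1 were lower again, by 0.63 and 0.57 on the log2 scale. Dnajc3 kept its direction with 99.0 and 113 against 73.1 and 78.2 CPM (0.45, SE 0.0840, adjusted P = 0.00364) and lay under the fold limit. Chac1, at 3.46 and 3.94 against 5.14 and 3.02 CPM, was not called (-0.19, SE 0.289).

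The other 3 called members were the genes that stood highest against controls in KO cerebellum, and both comparisons use the same KO cerebella. Eif2ak3 was at 45.5 and 44.1 CPM in KO cerebella against 27.8 and 28.2 CPM in KO cortices (0.64, SE 0.0817, adjusted P = 0.000590). Ppp1r15a was at 22.3 and 18.3 against 13.2 and 13.1 CPM (0.58, SE 0.138, adjusted P = 0.0108). Atf3 was at 2.31 and 2.90 against 0.884 and 1.35 CPM (1.19, SE 0.330, adjusted P = 0.0199), and DESeq2 did not call it (adjusted P = 0.115, in a range of 0.00235 to 0.115 over 4 alternatives). Trib3, at 1.54 and 0.87 against 0.72 and 0.13 CPM, had a log2 value of 1.38 (adjusted P = 0.129) and was called with the animal as a block, at 1.52 (adjusted P = 0.0357, in a range of 0.0204 to 0.277 over 4 alternatives). That a gene passed here and not in controls does not show that the genotypes differ, and the interaction test above gave no member.

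Over the 34 members, the region difference had the same sign in controls and KO mice for 29 (85.3%), and Pearson's r across these genes was 0.61. Over the 19016 genes tested in both fits the share was 87.1% and r was 0.94. Genes are not independent replicates, the fits share no library, and the members span a narrower range of differences than all genes do.

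**Figure D4:**
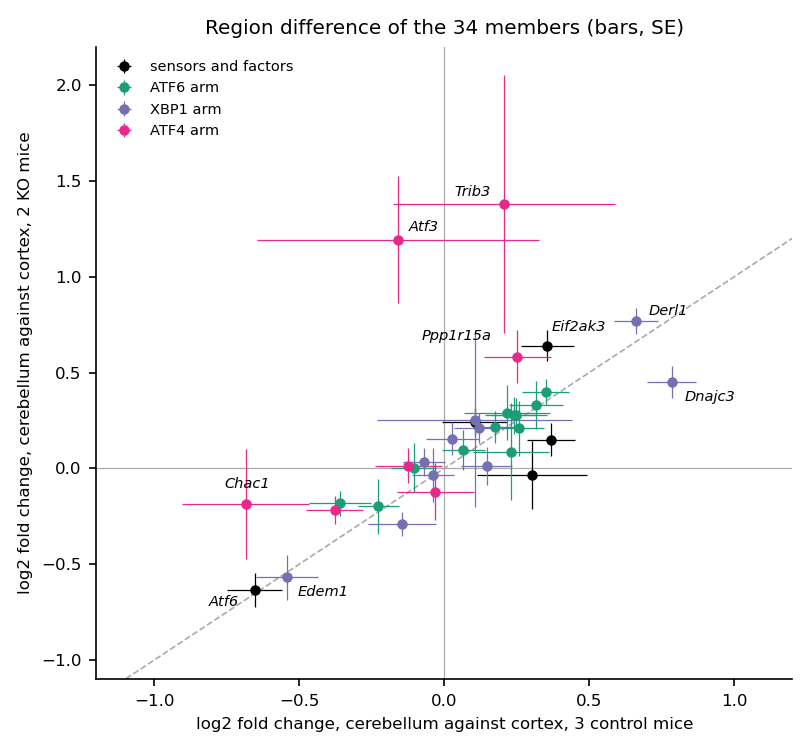
Log2 fold change of cerebellum against cortex for the 34 members in the 3 control mice (x axis) and in the 2 KO mice (y axis), with SE bars, by arm, and a dashed line of equal values. Derl1, Dnajc3, Atf6 and Edem1 lie far from 0 on both axes, and Atf3 and Trib3 lie far above the line with long bars.

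The wider pathway was followed in 102 tested genes of 6 lists that hold no member: further regulators, protein entry into and export from the ER, folding enzymes, ERAD, eIF2 control and other ATF4 targets. In KO cerebellum 1 of the 102 was called, against the 1.55% given above, and in KO cortex 0. Their medians were -0.0012 in cerebellum and -0.032 in cortex. The called gene was Slc7a11, the cystine transporter that feeds glutathione synthesis, an ATF4 target that other factors also raise. It was at 25.7, 19.3 and 22.0 CPM in control cerebella and 36.5 and 43.1 CPM in KO cerebella, without overlap, and it rose by 0.83 on the log2 scale (SE 0.131, adjusted P = 0.0159). It was not called without control 3 (0.82, adjusted P = 0.0808) or without KO 2 (0.70, adjusted P = 0.0945), nor under the replicate block (adjusted P = 0.102, the highest of a range from 6.43e-11), and the other 21 tested ATF4 targets of its list were not called.

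Between the regions, 13 of the 102 were called higher and 7 lower in control cerebellum (19.1% and 21.5% of all genes), and 11 and 3 in KO cerebellum (17% and 19.8% of all genes). Of the ERAD genes, Selenos, which recruits the extraction ATPase, was at 73.1, 77.5 and 78.6 CPM in control cerebella and 33.2, 35.3 and 30.2 CPM in cortices (log2 1.21, adjusted P = 5.28e-06), and Erlin1 was lower by 0.74 (adjusted P = 0.000700). Nfyc and Nfyb, which encode subunits of NF-Y, the partner of ATF6 on the ERSE, lay on opposite sides. Nfyc was at 59.0, 59.9 and 53.4 against 25.0, 32.9 and 30.1 CPM (0.96, adjusted P = 0.000116), and Nfyb at 30.9, 29.0 and 26.7 against 46.8, 47.2 and 48.8 CPM (-0.73, adjusted P = 0.000120). Nfya is on the same list, and its value is not given here. The disulfide isomerase Pdia5 had low levels, at 1.45, 0.879 and 0.916 CPM in control cerebella and 3.18, 4.51 and 3.87 CPM in cortices. It was lower by 1.83 (adjusted P = 0.000488). Vldlr, a lipoprotein receptor and ATF4 target, was higher by 1.31 (adjusted P = 1.13e-06). All 6 genes given with values were called in the same direction in the KO mice, where the Selenos difference was 0.79. DESeq2 did not call Pdia5 there (adjusted P = 0.068).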

How the data were processed

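The authors deposited 1 table of raw counts per library, in read pairs for each gene and without normalization. The file headers and the methods of the study give the earlier steps: trimmed pairs had been aligned to GRCm38 with STAR and counted over exons with featureCounts 2.0.1. Strand was ignored and a pair overlapping several genes was counted for each, so overlapping genes share counts. Of the members, Hsp90b1, Ddit3, Manf and Eif2ak3 share 15.7%, 10.9%, 9.25% and 8.05% of their exonic bases with another gene and all others less than 3%. Of 81881 entries, the 26345 without a mouse gene identifier were left out (0.160% to 0.926% of a library's counts). Ddit3 has 2 entries, and the longer was used.

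CPM values were scaled by TMM factors over all 10 libraries. Groups were compared with edgeR 4.0.16 (R 4.3.3), by its quasi-likelihood test, after filterByExpr with a count minimum of 10, with group as the only term, Benjamini-Hochberg adjustment over all genes tested, and calls where the adjusted P was under 0.05 and the log2 fold change beyond 0.5 in either direction (adjusted P alone for the interaction). The study used DESeq2, run here (1.42.0) as an alternative beside its size factors in edgeR, no low-count filter, a replicate block and the omission of each replicate. The scripts were tested on simulated data. Log2 fold changes come from these fits with their SE, and 95% intervals from the same moderated spread. Libraries of 1 group come from different mice, and differed beyond counting noise (chi-square per degree of freedom 4.29 to 30.2), so all were kept.

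Samples were grouped by the labels. The animal numbers there pair both tissues of a mouse. Deviations from the group means correlated within animals at r = 0.20, 0.37 and 0.16 for the controls and 0.33 for the KO mice, which have 1 value because 2 mice deviate equally from their mean. The members and all lists were chosen with earlier results of these data known. Named members are the sensors and factors, the 3 with the smallest P in each direction of KO against control in each tissue, and those called between control regions (at most 5 a direction). Of the wider pathway, at most 3 called genes a direction are named. Others, among them the genes of the ATF6 arm in the account of the KO mice, were chosen after their values were seen. Protein sequences were not used here.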

Additional observations from a re-analysis of the deposited data

How the results depend on the processing

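No member was called in KO against control, in either tissue, under DESeq2, under its size factors, under the replicate block, by adjusted P alone or without any 1 library. The exception was Atf3 in cerebellum, which made 1 member called higher with no filter on low counts. For the regions in controls, adjusted P alone gave 8 members higher and 6 lower, and leaving out 1 mouse gave 2 higher each time and 1 to 3 lower, with 1 lower without replicate 3. For the regions in KO mice, adjusted P alone gave 9 higher and 5 lower. The replicate block called 2 higher and 3 lower in controls and 5 higher and 2 lower in KO mice, and apart from Trib3 it changed no call of a member. In KO against control the replicate number joins different animals (r from -0.035 to 0.11), so that block is only a check: it called 181 genes in cerebellum and 3 in cortex.

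All genes called in cerebellum (302) became 842 with no filter and 133 to 400 without 1 library. In cortex (0) they became 49 with DESeq2, 380 with no filter, 98 without control 2 and 7 without KO 2. In the interaction (21) they became 219 with DESeq2, 599 with no filter, 128 with the block and 3 to 117 without 1 library. The members' median in cerebellum ran from -0.016 to 0.076 without 1 library, and in cortex from -0.10 to 0.013. The number of members with an interval inside ±0.5 fell to 14 in cortex without KO 2. Of 95 values of named genes, 19 changed sign under at least 1 alternative, and none of those 19 was called. Snx14 kept its direction throughout (-1.82 to -1.33 in cerebellum, -1.46 to -1.16 in cortex). In cerebellum it was not called without KO 1 or without KO 2 (adjusted P = 0.0989 and 0.0638), and in cortex it passed the adjusted P only with DESeq2, with no filter or without control 2. Leaving out a KO mouse from the region contrast was not run, since 1 library of each tissue would remain. The low counts of Atf3, Trib3, Derl3 and Chac1 limit their precision, and 2 KO mice limit every comparison. The causes of these changes were not tested.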
